A study of Parasteatoda tepidariorum with 16 samples.

Results

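The genes described here are the members of the BMP, TGF-beta, FGF and EGF signalling pathways in the common house spider *Parasteatoda tepidariorum*, followed in cells drawn from the forming germ disc. They were chosen by the product name that the deposited count file gives each gene model: a model was taken when its name held words such as bone morphogenetic, mothers against, activin, noggin, chordin, fibroblast growth factor, epidermal growth factor receptor or sprouty, and names with notch were left out. A further model with a matching name was also left out. The choice gave 83 of the 27990 gene models. They comprise 6 BMP ligands, 10 BMP and TGF-beta receptors, 4 Smads, 21 extracellular or membrane modulators of BMP signals, 4 latent TGF-beta-binding proteins, 8 ig-h3-like proteins, 6 intracellular proteins named after TGF-beta or Smad, 2 neuropilin and tolloid-like proteins, 2 FGF ligands, 9 FGF receptors, 2 FGF-binding or FGF receptor substrate proteins, 6 EGF receptors or substrates and 3 sprouty or Spred proteins. The words of the rule use no measured value, but the choice was made with earlier results of these data known.

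The 16 RNA-seq libraries formed 7 groups of wild-type, untreated embryos of the Osaka isolate. At stage 3, about 20 h after egg laying, there were 2 libraries of central cells (c cells), 3 of intermediate cells (i cells) and 3 of peripheral cells (p cells). At stage 4 (28 to 29 h) and early stage 5 (31 to 32 h) there were 2 libraries each of c and p cells. The labels give about 10 to 100 cells per library and name 4 mothers: the stage-3 c and p cells shared 1, the stage-3 i cells came from another, and each later stage had its own. Stage and mother, and i cells and their mother, therefore cannot be told apart. Nothing in the labels says whether the libraries of a group came from separate embryos, so p-values measure the spread between these libraries, which may be technical. In such pools, fewer cells of a type and less RNA per cell cannot be told apart.

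BMP and TGF-beta ligands bind pairs of type 1 and type 2 receptor kinases, which phosphorylate receptor Smads. These join the common partner Smad4 and enter the nucleus, while secreted proteins such as Sog (the arthropod chordin), noggin and tolloid hold back or free the ligand. FGFs and EGF-like ligands bind receptor tyrosine kinases that act through Ras and MAP kinase, and sprouty proteins dampen that signal. In this spider, BMP signals from a migrating cell group and the antagonist Sog are known for setting the dorsal-ventral axis once the germ disc has formed.

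Stage-3 libraries held 5948619 to 10500376 counts on gene models, stage-4 libraries 7100948 to 10045889 and early stage-5 libraries 4566853 to 5896305. Levels are given as CPM (counts per library total scaled to a common depth, with TMM factors over the 16 libraries), which compare a gene between libraries. Comparisons between genes use the deposited RPKM values, which also correct for gene length. A count of 0 allows up to 3 counts, or 0.255 to 0.422 CPM at stage 3, 0.362 to 0.519 at stage 4 and 0.577 to 0.773 at early stage 5. These limits cover counting error only, since amplified reads lacking molecular identifiers may be copies of the same molecule. The position of the cells was checked with known genes: *Pt-Ets4* (*g4238*), a marker of the centre, ranged from 403 to 2269 CPM in the 6 c libraries and did not exceed 1.28 CPM in the 10 i and p libraries. The peripheral marker *Pt-hh* (*g4322*) had 435 and 210.0 CPM in early stage-5 p cells and 0.258 and 8.13 CPM in c cells, whereas at stage 3 it overlapped between regions and 1 of the 3 p libraries held none. The other peripheral markers, *Pt-lab1* and *Pt-BarH1*, were likewise higher in both p libraries than in both c libraries at early stage 5. *Pt-prd2* had 221 and 141 CPM in early stage-5 c cells against 0.425 and 0.192 in p cells, and *Pt-opa* had 33.8 and 5.26 CPM in c cells and 382 and 223 in p cells. The endodermal gene *fuchi* was at 0 in all 3 i libraries and, at every stage, higher in every c library than in every p library. The authors had picked *Pt-Ets4* and *fuchi* as candidates from these stage-3 libraries. Their stage-3 differences between regions are therefore no independent check. The endodermal gene *Pt-GATA5* was found only in c cells at stages 3 and 4. At early stage 5 it overlapped, with 2.06 and 9.57 CPM in c cells and 6.59 and 4.62 in p cells.

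Few pathway genes were present in every library. Of the 83, 24 (28.9%) had no count anywhere, against 48.7% of all gene models, 59 had at least 1 count and 56 (67.5%) reached 1 CPM in some library, against 48.5% of all gene models. Only 4 (4.82%, against 7.69% of all gene models) reached 1 CPM in all 16 libraries, among them *Mad*, *Smad4* and 1 EGF receptor gene, whereas 17 (20.5%, against 13.9%) did so in 1 to 3 libraries. Single libraries had 17 to 33 of the genes at 1 CPM at stage 3, 14 to 33 at stage 4 and 29 to 47 at early stage 5, and 45, 38 and 49 genes reached that level in some library of these stages. Pathway genes together made up 0.0972% to 0.201% of the counts on genes.

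**Figure D1:**
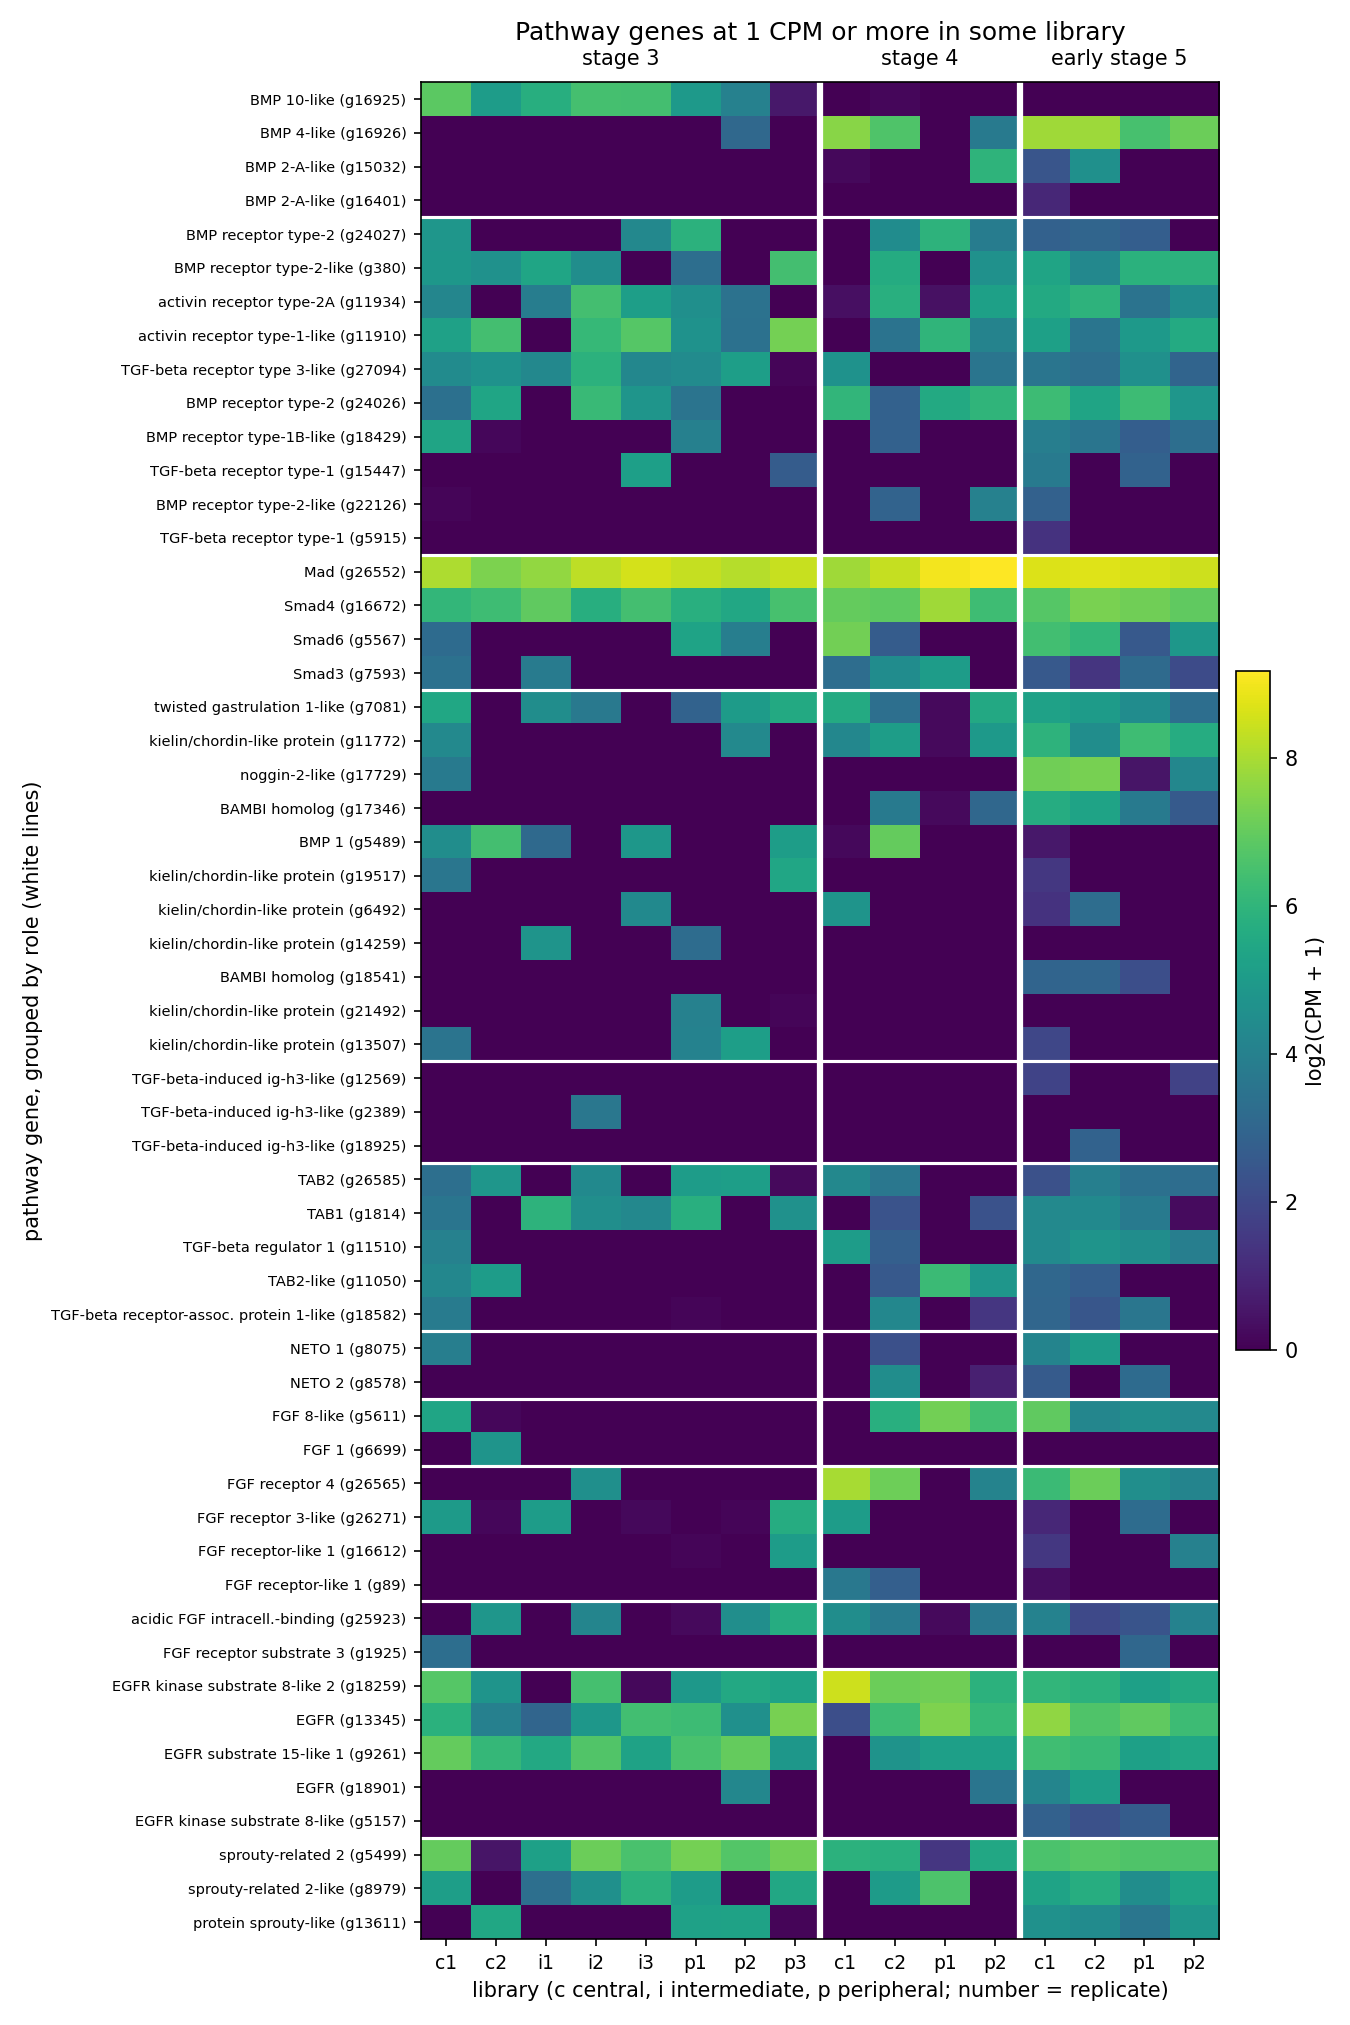
Heat map of log2(CPM + 1) for pathway genes that reached 1 CPM in some library (rows, grouped by role and ordered by mean RPKM within a role) in the 16 libraries (columns: c, i and p cells at stage 3, then c and p cells at stage 4 and early stage 5). *Mad*, *Smad4* and EGF receptor *g13345* are coloured in all 16 columns, while many other rows change between dark and bright among replicates of 1 group at stages 3 and 4.

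Replicates of 1 group often disagreed on whether a gene was present. Among the pairs of a pathway gene and a group with at least 10 CPM in some library of the group, 54 of 90 (60%) at stage 3 and 27 of 56 (48.2%) at stage 4 had a replicate with at most 3 counts, against 5 of 58 (8.62%) at early stage 5. The same shares over all genes were 46.1%, 32.4% and 7.84%. At stages 3 and 4 a value of 0 in 1 library was thus common beside a high value in its replicate, and the values below are given for each library where a statement rests on them.

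In all, 5 of the pathway genes were called in at least 1 comparison: the FGF8-like *g5611*, FGF receptor 4, the EPS8-like *g18259* and the BMP10-like *g16925* between stages, and the noggin-2-like *g17729* between regions. Tests were edgeR quasi-likelihood tests, a gene was called at an adjusted p under 0.05, and the Benjamini-Hochberg adjustment covered every gene tested in a comparison. Between stage 4 and stage 3, averaged over c and p cells, 4 of the 54 pathway genes tested were called (3 higher, 1 lower at stage 4), against 8.58% of all genes tested (4.95% higher, 3.63% lower), and 12 had an unadjusted p under 0.05 (background 18.3%). These shares lay close to those of all genes. Over all genes this comparison had 659 higher and 483 lower at stage 4, but 527 higher and 610 lower with DESeq2's size factors. Between c and p cells at early stage 5, 1 of 48 was called, against 0.812% of all genes, and 9 had an unadjusted p under 0.05 (background 8.2%). By edgeR's quasi-likelihood test in its current form, no pathway gene was called in the 7 other tests. For comparison I (stage-3 c cells over i and p cells; background 0.396%), 2 of 45 had an unadjusted p under 0.05 (background 5.28%), with 0 calls by edgeR's likelihood ratio test and 2 by DESeq2. The genes called by the other tools are named here after their values were seen, and in comparison I they were *g14259* and *g15447*. In comparison II (p over c and i cells, 0.101%), 1 of 45 had an unadjusted p under 0.05 (5.41%), with 0 calls by the likelihood ratio test and 1 by DESeq2 (*g11050*). In comparison III (i over c and p cells, 0.184%), 0 of 45 did (4.93%), with 0 and 4 calls by these tools (*g11050*, *g11772*, *g13611* and *g19517*). For stage-3 c over p cells (0.245%), 0 of 42 did (3.57%), with 0 and 2 calls (*g11050* and *g18901*). For stage-4 c over p cells (0.486%), 6 of 38 did (4.42%), with 0 and 3 calls (*g26565*, *g5489* and *g5567*). Between early stage 5 and stage 4 (0.947%), 4 of 54 did (4.43%), with the same 2 calls by both tools (*g13611* and *g17729*). In the interaction test, which sets the contrast of c with p cells at 1 stage against that at the others (0.0827%), 3 of 54 did (2.62%), with 1 (*Pt-dpp*) and 0 calls. These comparisons share libraries with each other. The percentages of all genes given above are from the quasi-likelihood test. DESeq2 called more over all genes: 603 of 10860 in comparison I, 556 in II and 696 in III. It called 932 of 10202 for stage-3 c over p cells and 299 of 10074 for stage-4 c over p cells. Between early stage 5 and stage 4 it called 413 of 13306. The likelihood ratio test called 137 there and 32 in the interaction test.

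Among the ligands, 2 neighbouring genes had opposite courses. The BMP10-like gene *g16925* (scaffold 2360, 10506 to 16988, plus strand of Ptep_1.0) and the BMP4-like gene *g16926* (*Pt-dpp*, scaffold 2360, 31486 to 100705, plus strand), the spider counterpart of the *Drosophila* ligand Decapentaplegic, follow each other on the same strand with 14497 bases between them. At stage 3, *g16925* had 114 and 32.8 CPM in c cells, 53.3, 87.2 and 86.3 in i cells and 29.7, 15.4 and 0.511 in p cells. At stage 4 and early stage 5 it had a single count in the 8 libraries together. The BMP10-like ligand was thus present in all 8 stage-3 libraries, at a trace in the last p library, and was practically gone thereafter. It was lower at stage 4 than at stage 3 (log2 fold change -9.85, SE 3.24, adjusted p = 0.0312, edgeR). From the 1 count at stage 4 and the 2135 in stage-3 c and p cells, the level at stage 3 was 1140 times that at stage 4 (95% interval 204 to 45056, exact, for counting error only). The call was lost in 10 of the 13 fits that left out 1 library (adjusted p 0.0637 to 0.158). It held without stage-3 c2, p2 or p3. It was also lost with a filter of at least 10 counts in at least 2 libraries (adjusted p = 0.0508) and in the earlier, legacy form of the quasi-likelihood test, chosen after the data were seen (adjusted p = 0.0511).

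Within stage 3, the values of *g16925* in p cells were all below those in c and i cells. This gave a log2 fold change of -2.35 (SE 0.96) for p over c and i cells, with an unadjusted p of 0.0140 and an adjusted p of 0.814 by edgeR, which did not pass. For c over p cells alone the log2 fold change was 2.35 (SE 1.23, adjusted p = 0.921), and it moved to 1.13 without stage-3 c1 and to 3.39 without stage-3 p1.

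*Pt-dpp* had 0 and 0 CPM in stage-3 c cells, 0, 0 and 0 in i cells and 0, 7.66 and 0 in p cells. At stage 4 it had 185 and 99.9 CPM in c cells and 0 and 12.6 in p cells. By early stage 5 it reached 233 and 227 CPM in c cells and 89.3 and 138 in p cells. *Pt-dpp* was therefore all but absent at stage 3, stood higher in both c libraries than in both p libraries at each later stage, and was found in every library of early stage 5. None of these differences passed edgeR's quasi-likelihood test in its current form after adjustment. The log2 fold change of c over p cells was 4.20 (SE 1.37, adjusted p = 0.215) at stage 4 and 0.97 (SE 0.36, adjusted p = 0.436) at early stage 5. The stage-4 value moved to 3.45 without stage-4 p1 and to 12.90 without stage-4 p2, which leaves a p library at 0. The log2 fold change was 7.42 (SE 2.80, adjusted p = 0.0800) for stage 4 over stage 3 and 2.29 (SE 0.78, adjusted p = 0.227) for early stage 5 over stage 4. The gene was among those called for stage 4 over stage 3 by the likelihood ratio test, by DESeq2, in the legacy form and without stage-3 p2.

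The other BMP ligands were scarce. A BMP2-A-like gene, *g15032*, reached 1 CPM in 3 libraries, with 61.3 CPM in 1 stage-4 p library and 4.38 and 23.4 CPM in early stage-5 c cells, against 0 in both early stage-5 p libraries. A second gene of that name, *g16401*, reached 1.03 CPM in 1 library. The BMP3 gene *g12516* and the BMP10 gene *g8929* had no count. Averaged over the 7 groups, *g16925* had 20.4 RPKM and *Pt-dpp* 11.4 RPKM, against 2.33 for *g15032* and 0.0375 for *g16401*.

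All 10 receptor genes were detected, none of them in every library. The receptors with the highest mean RPKM were the BMP type 2 receptors *g24027* (10.3) and *g380* (9.24), the activin type 2 receptor *g11934* (6.96) and the activin type 1 receptor *g11910* (5.99). Across the 16 libraries they ranged from 0 to 60.9, 0 to 84.7, 0 to 84.6 and 0 to 151 CPM in that order. At early stage 5, the type 2 receptor *g380* had 39.7 and 18.7 CPM in c cells and 57.0 and 58.5 in p cells. It was the only pathway gene with both p libraries above both c libraries at that stage, and the difference did not pass the test (log2 fold change -1.04, SE 0.58, adjusted p = 0.688, edgeR). Without early stage-5 c1 the log2 fold change was -1.65, and without early stage-5 c2 it was -0.58. The activin type 2 receptor *g11934* lay the other way, with 46.9 and 59.6 CPM in c cells and 10.4 and 21.0 in p cells (log2 fold change 1.70, SE 0.65, adjusted p = 0.470, edgeR). The *g24027* model and its neighbour *g24026*, 62 bases away on the same strand, carry the same NCBI gene label as type 2 receptors, so that counts of a single gene may be split between them. In *g24026* the levels ranged from 0 to 77.4 CPM. The remaining receptors are *g27094* (TGF-beta type 3, a co-receptor, 0 to 58.8 CPM), the BMP type 1B receptor *g18429* (0 to 40.1 CPM), the TGF-beta type 1 receptors *g15447* (0 to 35.0 CPM) and *g5915* (0 to 1.55 CPM) and the BMP type 2 receptor *g22126* (0 to 15.4 CPM). No receptor gene was called in any of the 9 tests by edgeR's quasi-likelihood test.

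Smads, which carry the signal to the nucleus, included the most abundant pathway gene. *Mad* (*g26552*), the receptor Smad of BMP signals, had the highest mean RPKM of the 83 genes (90.3), and *Smad4* (*g16672*), the partner shared by all receptor Smads, the third highest (45.1). *Mad* had 265 and 164 CPM in stage-3 c cells, 205, 307 and 388 in i cells and 334, 283 and 341 in p cells. It had 231 and 327 CPM in stage-4 c cells and 519 and 579 in p cells, and 412 and 419 CPM in early stage-5 c cells and 395 and 353 in p cells. The c libraries thus lay below the p libraries at stages 3 and 4 and slightly above them at early stage 5. The log2 fold changes of c over p cells were -0.56 (SE 0.50), -1.04 (SE 0.55) and 0.11 (SE 0.25), with edgeR adjusted p-values of 0.921, 0.881 and 0.876. *Smad4* spanned 44.0 to 121 CPM at stage 3, 78.5 to 234 CPM at stage 4 and 106 to 159 CPM at early stage 5, and its regions overlapped at every stage.

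The inhibitory Smad6 (*g5567*) and the TGF-beta and activin Smad3 (*g7593*) were lower, at 8.18 and 1.37 mean RPKM. *Smad6* had 8.27 and 0 CPM in stage-3 c cells, 0, 0 and 0 in i cells and 38.7, 14.3 and 0 in p cells. It had 148 and 5.32 CPM in stage-4 c cells and 0 and 0 in p cells. At early stage 5 it had 83.3 and 66.3 CPM in c cells and 4.89 and 27.7 in p cells. Both c libraries exceeded both p libraries at stage 4 and early stage 5, without passing edgeR's quasi-likelihood test in its current form. Its adjusted p was 0.487 at stage 4 and 0.323 at early stage 5, where the log2 fold change was 2.11 (SE 0.68). The mean in c cells at stage 4 was at least 173-fold higher than the floor of 3 counts per library in p cells, yet 1 c library held 5.32 CPM only. This difference passed by DESeq2 (adjusted p = 7.28e-05) and in the legacy form (0.0394). *Smad3* did not exceed 32.4 CPM.

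**Figure D2:**
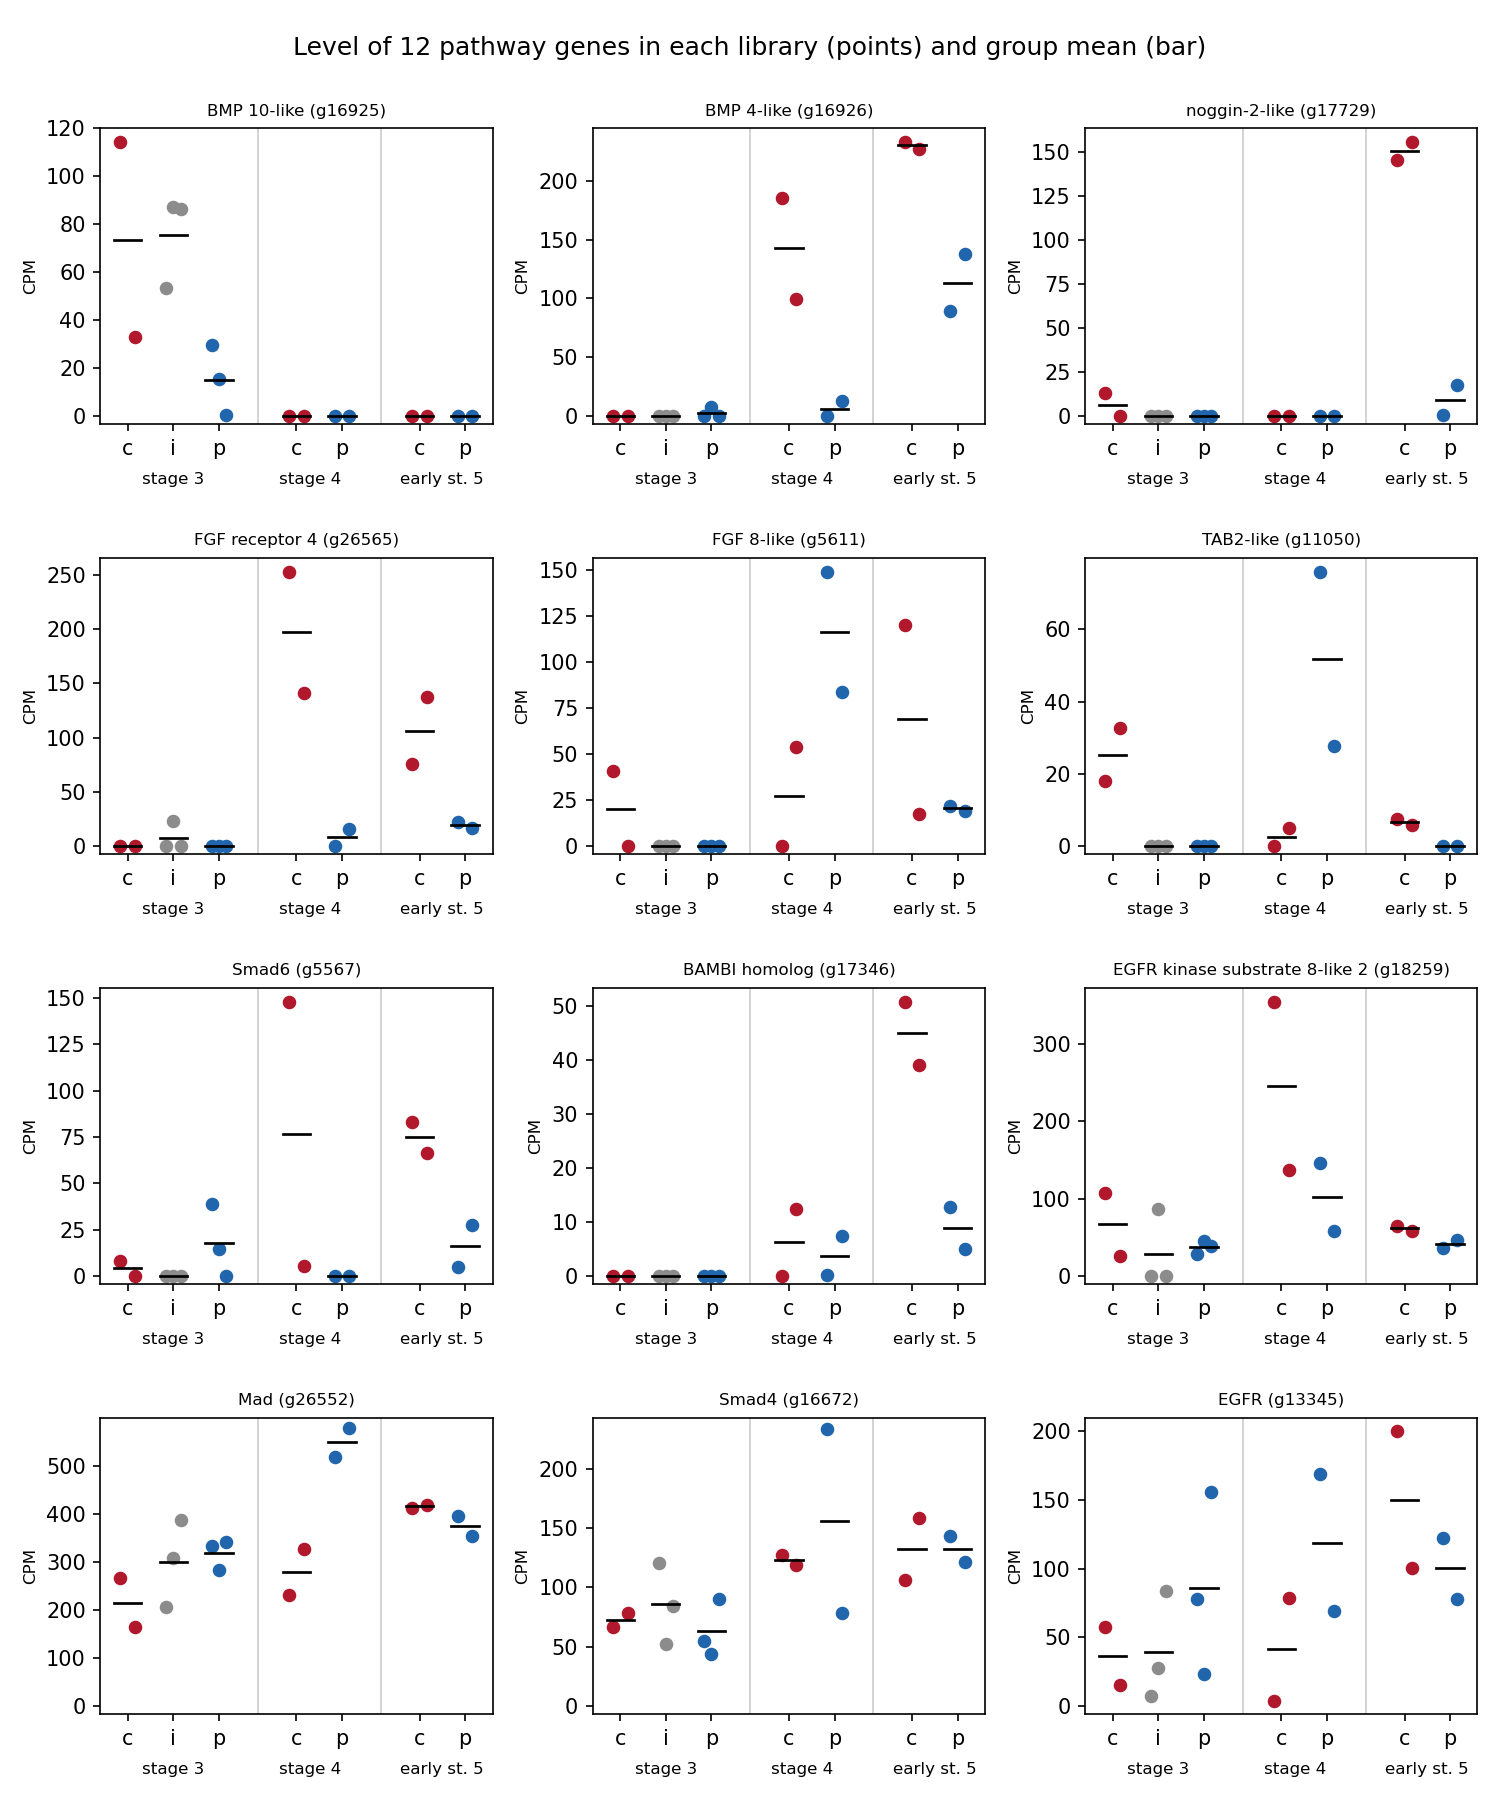
Levels of 12 pathway genes in CPM (vertical axes, each with its own scale that includes 0) by group (horizontal axes: c, i and p cells at stage 3, c and p cells at stage 4 and early stage 5). Points are libraries (red c, grey i, blue p cells) and bars group means. The BMP10-like gene is confined to stage-3 libraries, apart from a single count, the BMP4-like gene and FGF receptor 4 stand highest in c cells of the later stages, and the noggin-2-like gene reaches 146 and 156 CPM in early stage-5 c cells.

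Of the 21 modulators of BMP signals, 11 reached 1 CPM and 9 had no count. A noggin-2-like gene, *g17729* (scaffold 2642, 133906 to 148474, minus strand), was the only pathway gene called between c and p cells. Noggin is known in vertebrates as a secreted antagonist that binds BMPs. *g17729* had 146 and 156 CPM in early stage-5 c cells and 0.425 and 17.9 in p cells. Among the 12 earlier libraries it was counted in 1, a stage-3 c library with 12.9 CPM, and was at 0 in the 11 others. The c cells of early stage 5 averaged 151 ± 7.30 CPM and the p cells 9.16 ± 12.3 CPM (SD, n = 2 each), a 16.5-fold difference in means (log2 fold change 3.94, SE 0.69, adjusted p = 0.0271, edgeR). The call was lost without any 1 of the 4 libraries (adjusted p 0.105 to 0.829), in which case the lone library of a group is assumed to vary like the other group. The log2 fold change was 3.02 without early stage-5 p1 and 8.35 without early stage-5 p2. The call was also lost with a filter of at least 10 counts in at least 2 libraries (adjusted p = 0.0598). A block for replicate number (adjusted p = 0.336) and all 16 libraries in 1 fit (adjusted p = 0.878) lost it as well. With that block, 0 of all genes tested were called. The call was kept in 5 of the 8 alternatives that left no library out. These were the likelihood ratio test (adjusted p = 4.13e-05), DESeq2 (0.00268), DESeq2's size factors in edgeR (0.0107), no filter (0.0293) and the legacy form (5.95e-05). The other 3 genes named noggin or noggin-like, *g17226*, *g2834* and *g2835*, had no count in any library.

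A homolog of BAMBI (*g17346*), in vertebrates a receptor-like inhibitor without a kinase, was at 0 in all 8 stage-3 libraries. It had 0 and 12.4 CPM in stage-4 c cells and 0.173 and 7.37 in p cells, and 50.8 and 39.0 CPM in early stage-5 c cells and 12.8 and 5.00 in p cells. The early stage-5 values in c cells exceeded those in p cells but did not pass the test (log2 fold change 2.32, SE 0.76, adjusted p = 0.332, edgeR). The second BAMBI homolog, *g18541*, was found only at early stage 5, with 6.70 and 6.94 CPM in c cells and 3.61 and 0 in p cells.

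The modulators with the highest mean RPKM were the twisted gastrulation homolog *g7081* (15.8), a BMP-binding protein, and the kielin/chordin-like gene *g11772* (11.0), followed by *g17729* (6.33) and *g17346* (3.103). *g7081* had 37.1 and 32.1 CPM in early stage-5 c cells and 20.8 and 9.04 in p cells, and ranged from 0 to 46.7 CPM at stage 3. *g11772* had 60.6 and 21.8 CPM in early stage-5 c cells and 80.4 and 49.8 in p cells, where the regions overlapped. It was counted in 2 of the 8 stage-3 libraries. Of the 7 other kielin/chordin-like genes, *g21730* had no count, *g18883* had 7 counts in all, and *g6492*, *g21492*, *g19517*, *g13507* and *g14259* reached at most 41.9 CPM, each in 1 to 4 libraries. The metalloprotease BMP1 (*g5489*), which is related to tolloid and cleaves chordin, had 21.5 and 85.5 CPM in stage-3 c cells, 7.71, 0 and 28.1 in i cells and 0, 0 and 33.9 in p cells. In stage-4 c cells it had 0.148 and 129 CPM and in p cells 0 and 0, so that a single library carried it there, and at early stage 5 it did not exceed 0.516 CPM. The 3 tolloid-like and 2 follistatin-like genes had no count.

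*Pt-sog* (*g23966*), the antagonist of *Pt-dpp* in this spider, is named in a way the choice of genes did not catch and is given here beside its ligand. At early stage 5 it had 87.4 and 49.5 CPM in c cells and 171 and 186 in p cells, opposite in order to *Pt-dpp*. This difference did not pass the test (log2 fold change -1.43, adjusted p = 0.222, edgeR). The earlier stages did not show an opposite order. At stage 4 the c libraries of *Pt-sog* held 0.296 and 129 CPM and the p libraries 0.346 and 49.7, so that the regions overlapped. For c over p cells edgeR gave a log2 fold change of 1.205 there (adjusted p = 0.881). At stage 3, where *Pt-dpp* was all but absent, *Pt-sog* ranged from 0 to 29.7 CPM and its c and p libraries overlapped.

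No latent TGF-beta-binding gene (4 models) had a count. These proteins hold secreted TGF-beta in the matrix in vertebrates. Of the 8 ig-h3-like genes, which resemble a matrix protein induced by TGF-beta, 5 had no count, and *g2389*, *g18925* and *g12569* reached 11.6, 6.46 and 2.58 CPM, in 1, 1 and 2 libraries. The 6 intracellular genes were all detected. TAB2 (*g26585*, 7.61 mean RPKM) and TAB1 (*g1814*, 7.25), partners of the kinase TAK1, ranged from 0 to 34.1 and 0 to 60.4 CPM. The TGF-beta regulator *g11510* (5.48 mean RPKM) had 33.0 and 5.92 CPM in stage-4 c cells against 0 in both p libraries, and 19.9 and 26.1 CPM in early stage-5 c cells against 21.5 and 14.2 in p cells. *g18582*, named for a TGF-beta receptor-associated protein, did not exceed 18.0 CPM.

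The second TAB2-like gene, *g11050*, changed sides between stages. It had 17.9 and 32.7 CPM in stage-3 c cells and 0 in all 6 i and p libraries. At stage 4 it had 0 and 4.95 CPM in c cells and 76.0 and 27.6 in p cells, and at early stage 5 7.48 and 5.74 CPM in c cells and 0 in both p libraries. The groups did not overlap at any stage, with c cells higher at stage 3 and early stage 5 and p cells higher at stage 4. The level in stage-3 c cells was at least 93.2-fold higher than the floor of 3 counts per library in p cells (adjusted p = 0.921, edgeR). For stage 4 the log2 fold change of c over p cells was -4.23 (SE 2.11, adjusted p = 0.881), and it moved to -3.37 without stage-4 p1 and to -11.41 without stage-4 c2. No test of *g11050* passed the adjusted threshold by edgeR, the interaction included (unadjusted p = 0.00263, adjusted p = 0.701).

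The 2 neuropilin and tolloid-like genes entered by their name and encode membrane proteins known in vertebrates as partners of glutamate receptors. *g8075* (NETO1-like, 3.11 mean RPKM) was counted in 1 stage-3 c library (14.2 CPM) and 1 stage-4 c library (3.74 CPM), and had 16.8 and 31.6 CPM in early stage-5 c cells and 0 in both p libraries, at least 39.8-fold higher than the floor of 3 counts per library (adjusted p = 0.220, edgeR, not passed). It was called by the likelihood ratio test, by DESeq2 and in the legacy form. *g8578* (NETO2-like, 0.564 mean RPKM) did not exceed 21.4 CPM.

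The FGF pathway held 2 of the 4 genes called between stage 4 and stage 3. The FGF8-like ligand *g5611* (scaffold 671, 239636 to 329201, plus strand) was higher at stage 4. It had 40.7 and 0.107 CPM in stage-3 c cells, the second value being a single count, and 0 in all 6 i and p libraries. It had 0 and 54.0 CPM in stage-4 c cells and 149 and 83.9 in p cells, and 120.4 and 17.5 CPM in early stage-5 c cells and 21.9 and 19.0 in p cells. The ligand was thus present in 3 of 4 stage-4 libraries and in all 4 of early stage 5, with both stage-4 p values above both c values. Stage 4 exceeded stage 3 (log2 fold change 6.64, SE 1.87, adjusted p = 0.00773, edgeR). The call was lost without stage-4 c2 (log2 fold change 1.23, adjusted p = 1) and without stage-4 p1 (adjusted p = 0.0603). The difference of c from p cells at stage 4 did not pass the adjusted test (log2 fold change -2.04, SE 1.05, adjusted p = 0.881), and the value moved to -1.17 without stage-4 c1 and to -12.63 without stage-4 c2. The FGF1 gene *g6699* was seen in a single library, at 25.9 CPM in stage-3 c2, and its mean of 4.86 RPKM rests on that library.

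FGF receptor 4 (*g26565*, scaffold 164, 781295 to 826289, plus strand), a receptor tyrosine kinase, was higher at stage 4 than at stage 3. At stage 3 it was at 0 in both c and all 3 p libraries and had 0, 22.7 and 0 CPM in i cells. At stage 4 it had 253 and 141 CPM in c cells and 0 and 16.2 in p cells, and at early stage 5 75.8 and 137 CPM in c cells and 22.1 and 16.7 in p cells. The mean of the 4 stage-4 libraries was at least 368-fold higher than the floor of 3 counts per library in stage-3 c and p cells (adjusted p = 0.0154, edgeR). This call was kept in all 7 alternatives other than leaving out a library, and lost without stage-4 p2 (adjusted p = 1) and early stage-5 c2 (adjusted p = 0.0576).

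Within both later stages, *g26565* was higher in both c libraries than in both p libraries. At stage 4 the log2 fold change was 4.32 (SE 1.21, adjusted p = 0.0654, edgeR), just outside the threshold. It passed with DESeq2's size factors in edgeR (adjusted p = 0.0460), with all 16 libraries in 1 fit (0.0408), with DESeq2 (0.0338) and with the legacy form of the quasi-likelihood test (0.0239). It did not pass with the likelihood ratio test (0.276), with no filter (0.0684), with the stricter filter (0.0560) or with a block for replicate number (0.432). Nor did it pass in any of the 4 fits that left out 1 library. There the log2 fold change lay between 3.56 without stage-4 p1 and 13.37 without stage-4 p2. At early stage 5 the log2 fold change was 2.43 (SE 0.57, adjusted p = 0.104, edgeR), and 3 of 8 alternatives other than leaving out a library passed.

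Other FGF receptors were patchy. *g26271* (FGF receptor 3-like, 4.02 mean RPKM) reached 1 CPM in 6 libraries with up to 50.7 CPM. The receptor-like genes *g16612* and *g89*, whose relatives lack a kinase domain, had 1.17 and 0.555 mean RPKM. *g89* had 11.7 and 5.92 CPM in stage-4 c cells and 0 in both p libraries, and 0.258 CPM was its only other value. The 2 FGF receptor 2-like and 2 of the 5 receptor-like genes had no count, and *g88* had a single count. The acidic FGF-binding protein *g25923* (3.36 mean RPKM) and the FGF receptor substrate *g1925* (0.862) did not exceed 50.9 and 8.88 CPM.

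In the EGF group, the receptor *g13345* was found in all 16 libraries, at 10.5 mean RPKM. It had 57.2 and 15.0 CPM in stage-3 c cells, 7.06, 27.7 and 83.6 in i cells and 78.1, 23.1 and 156 in p cells. It had 3.55 and 78.9 CPM in stage-4 c cells and 169 and 69.1 in p cells, and 199.8 and 100.2 CPM in early stage-5 c cells and 122 and 78.1 in p cells. Its regions overlapped at every stage. A second EGF receptor model, *g18901* (0.680 mean RPKM), had 17.3 and 34.2 CPM in early stage-5 c cells and 0 in both p libraries. In the earlier stages it was counted in 1 p library of stage 3 (18.0 CPM) and 1 of stage 4 (10.8 CPM). The early stage-5 level in c cells was at least 42.4-fold higher than the floor of 3 counts per library in p cells, without passing the test (adjusted p = 0.200, edgeR). It passed by edgeR's likelihood ratio test (adjusted p = 0.00290), by DESeq2 (0.000264) and in the legacy form (0.00510).

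The EPS8-like gene *g18259* (scaffold 2794, 130083 to 208564, minus strand), named for a substrate of the receptor that links it to the actin cytoskeleton, was higher at stage 4. It had 108 and 25.7 CPM in stage-3 c cells, 0, 87.4 and 0.141 in i cells and 28.4, 45.3 and 38.6 in p cells. At stage 4 it had 355 and 137 CPM in c cells and 146 and 58.7 in p cells, and at early stage 5 65.0 and 58.9 CPM in c cells and 36.4 and 46.2 in p cells. The stage-4 values mostly exceeded those before and after, and those of stages 3 and 4 overlapped. The log2 fold change of stage 4 over stage 3 was 1.67 (SE 0.54, adjusted p = 0.0274, edgeR). That of early stage 5 over stage 4, which shares the stage-4 libraries, was -1.67 (SE 0.66, adjusted p = 0.518). The stage-4 call was lost without stage-3 c2 (adjusted p = 0.159), stage-4 c1 (0.293), stage-4 p1 (0.327), early stage-5 c1 (0.0531) or early stage-5 c2 (0.0849), and under 4 of the 7 other alternatives (adjusted p 0.0520 to 0.316 in these 4). Without stage-3 c1 the log2 fold change was 2.38, and without stage-4 p1 it was 1.24.

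The EPS15-like gene *g9261* (7.29 mean RPKM), named for an endocytic adaptor, ranged from 28.3 to 129 CPM at stage 3. It had 0 and 25.4 CPM in stage-4 c cells and 35.6 and 36.5 in p cells, and 81.5 and 72.7 CPM in early stage-5 c cells and 36.6 and 41.7 in p cells. The lower values at stage 4 did not pass the test against stage 3 (log2 fold change -1.96, SE 0.73, adjusted p = 0.0746, edgeR). They did with DESeq2's size factors, with a block for replicate number and without stage-3 p3. The EPS8-like *g5157* did not exceed 6.19 CPM, and *g24240*, which shares the NCBI label of *g9261*, had 2 counts.

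The sprouty-related genes *g5499* and *g8979*, named for Spred proteins that hold back Ras signals, had 26.5 and 14.4 mean RPKM and ranked 4 and 8 of the 83 genes by that measure. *g5499* had 95.4 and 108 CPM in early stage-5 c cells and 100.1 and 96.2 in p cells, a narrow span. At stage 3 it had 127 and 0.427 CPM in c cells, 35.8, 136 and 91.5 in i cells and 153, 105 and 146 in p cells. *g8979* ranged from 0 to 96.4 CPM. The sprouty-like gene *g13611* (2.45 mean RPKM) was at 0 in all 4 stage-4 libraries. It had 0 and 43.7 CPM in stage-3 c cells, 0, 0 and 0 in i cells and 37.4, 38.5 and 0.0851 in p cells, and 24.0 and 20.6 CPM in early stage-5 c cells and 11.3 and 27.1 in p cells. Stage 4, taken at the floor of 3 counts per library, was at least 56.5-fold lower than stage-3 c and p cells (adjusted p = 0.0958, edgeR), and early stage 5 was at least 49.0-fold higher than stage 4 (adjusted p = 0.847). Neither difference passed this test. The first was called by the likelihood ratio test, by DESeq2, in the legacy form and with a block for replicate number. It was also called without stage-3 c1 or p3. The second was called by the likelihood ratio test and DESeq2.

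At early stage 5, c cells lay above p cells for many pathway genes, most of them without passing a test. There, 20 of the 48 genes tested (41.7%) had both c libraries above both p libraries, against 23.1% of all genes tested, and 1 (2.08%) lay the other way, against 11.9%. The 20 were the ligands *Pt-dpp* and *g15032*, the receptors *g11934*, *g18429* and *g24027*, *Mad* and *Smad6*, the modulators *g17729*, *g17346*, *g18541*, *g7081* and *g6492*, the TAB genes *g1814* and *g11050*, the NETO1-like *g8075*, FGF receptor 4, *g18901*, *g18259* and *g9261* of the EGF group and the Spred gene *g8979*. In 5 of the 20 both p libraries had at most 3 counts. In some the gap was narrow. The lower c and the higher p value were 38.9 and 38.7 CPM in *g8979*, 6.19 and 5.74 in *g24027* and 412 and 395 in *Mad*. The median log2 fold change of c over p cells was 0.81 over the 48 genes and 0.18 over all genes tested. A gene was tested when any library reached 1 CPM, so that genes present in c cells alone entered through the group where they were high. The c libraries of early stage 5 also had more genes at 1 CPM than the p libraries, 9406 to 10742 of all genes against 7915 to 8392, and 38 to 47 pathway genes against 29 to 35. The part of these detection differences in the counts of non-overlapping genes was not tested.

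At stage 4, 9 of 38 pathway genes tested (23.7%) had both c libraries above both p libraries and 6 (15.8%) lay the other way, against 16% and 12.2% of all genes. In 5 of the 9 both p libraries had at most 3 counts, and in *g5489* 1 of the 2 c libraries had a single count. Those higher in c cells were *Pt-dpp*, *Smad6*, *g5489*, *g11510*, *g26585*, *g26565*, *g89*, *g25923* and *g5499*, and those higher in p cells included *Mad*, *g11050*, *g11910*, *g5611* and *g9261*. The median was 0.55, against 0.07 over all genes. At stage 3, 3 of 42 (7.14%) had both c libraries above all 3 p libraries and 1 (2.38%) lay below, against 11.4% and 4.86%, and in 2 of the 3 all p libraries had at most 3 counts. The median was -0.21, against 0.06 over all genes. For i over c and p cells the median over 45 pathway genes was -1.18, against -0.29 over all genes, with 17 to 20 pathway genes at 1 CPM in the i libraries, 17 to 33 in the c libraries and 18 to 24 in the p libraries. Early stage 5 over stage 4 had a median log2 fold change of 0.88 over the 54 genes tested, against 0.30 over all genes. For stage 4 over stage 3 both medians were 0.

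**Figure D3:**
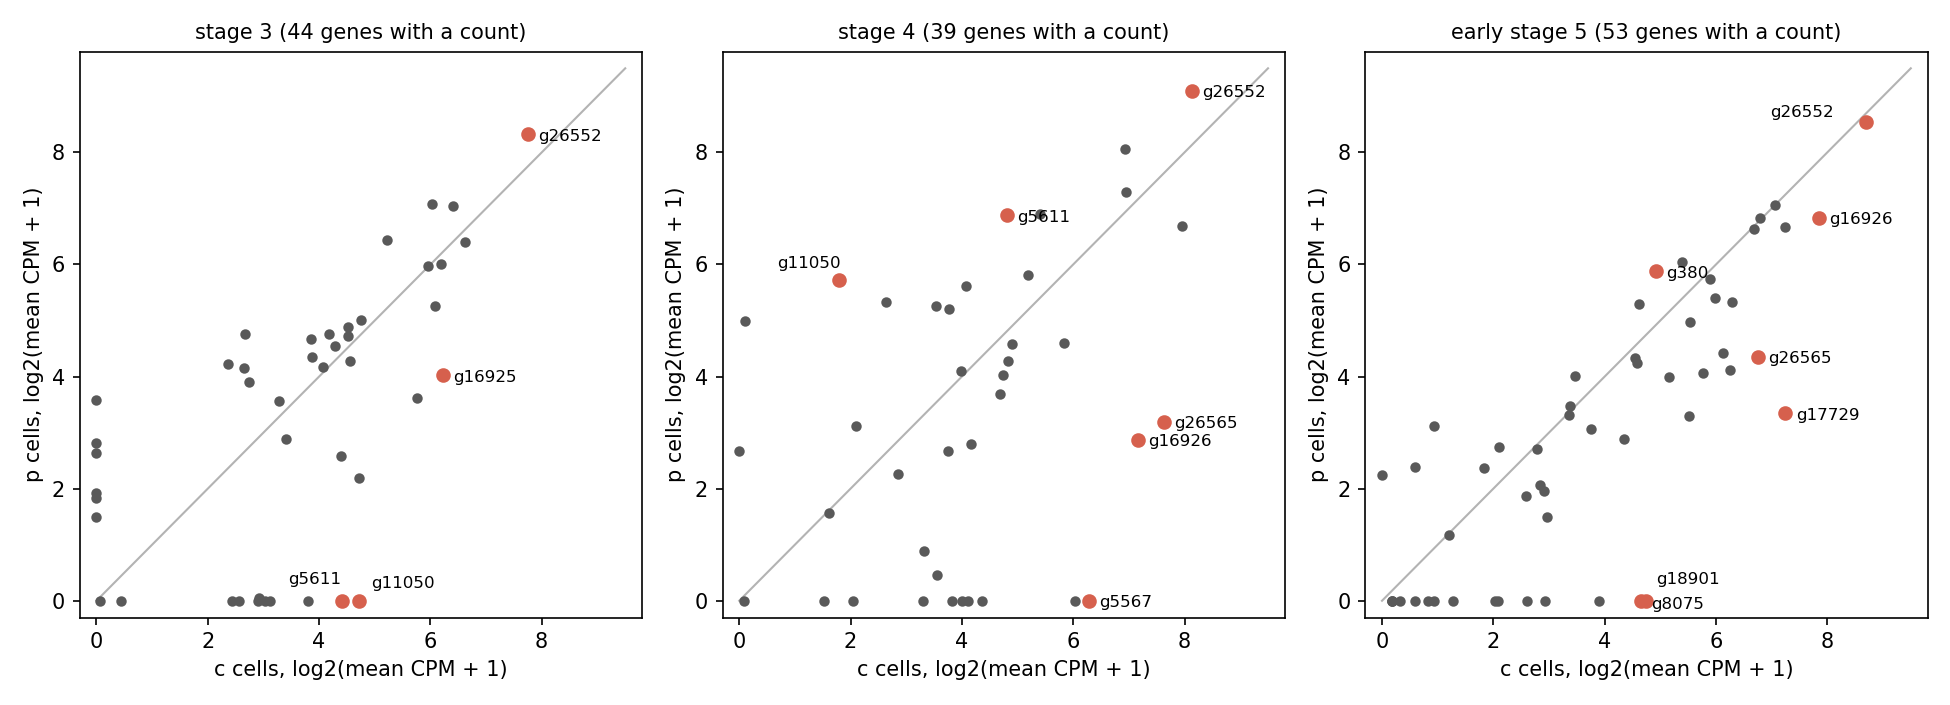
Mean level in c cells (horizontal axis) against that in p cells (vertical axis), both as log2(mean CPM + 1), for each pathway gene with a count at stage 3, stage 4 and early stage 5. The line marks equal levels and named genes are in red. At early stage 5, *g17729*, *g26565* and *Pt-dpp* (*g16926*) lie below the line, on the side of c cells, and *g380* above it, while *Mad* (*g26552*) lies close to it.

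Other genes were counted from a list of 101 gene models matched by words in their product names, so that not each need act in these pathways. Among them were inhibins, growth/differentiation factors, heparan sulfate enzymes, neuregulins, Ras and MAP kinase genes and Ets factors. Between regions, 63 to 75 of these genes were tested and 1 was called in each of the 6 comparisons, where 0.101% to 0.812% of all genes were called, and it was *g4238* (*Pt-Ets4*), the marker of the centre given above. Of 79 tested between stage 4 and stage 3, 1 was higher and 3 were lower at stage 4 by edgeR, against 4.95% and 3.63% of all genes. These 4 are named after their values were seen. The higher one was *g3694*, 1 of 2 models named for TAK1 (MAP3K7), the kinase that TAB proteins bind, with 134 to 297 CPM in the 4 stage-4 libraries and 19.3 to 101 CPM in the 5 stage-3 c and p libraries (log2 fold change 2.01, adjusted p = 0.000255, edgeR). The lower ones were the MAP3K15 gene *g7344* (log2 fold change -1.57, adjusted p = 0.00102), *g8219*, named for a MAP kinase-binding protein (log2 fold change -2.13, adjusted p = 7.59e-05), and *g27859*, a phosphofurin sorting protein that the list caught by its name (log2 fold change -3.40, adjusted p = 0.0142).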

How the data were processed

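The authors amplified poly(A) RNA of small cell pools by PCR and sequenced it as single-end reads. After trimming, the authors placed the reads on Ptep_1.0 with BLAT, kept filtered hits and ran htseq-count on the AUGUSTUS aug3.1 models. All tests used the deposited raw counts, while levels between genes were read from the deposited RPKM values, which the authors derived from those counts. All 16 count columns matched a sample by name and 0 were left unmatched. The 5 rows without a gene, filled for early stage 5 only (8.18% to 8.85% of counts), were left out. Product names and positions are as deposited. No sequences are shown, because none of the sources used here holds them for these models.

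Computation was in R 4.3.3 with edgeR 4.0.16 and, for an alternative, DESeq2 1.42.0. A gene entered a comparison when any of its libraries reached 1 CPM. TMM factors, glmQLFit (legacy = FALSE) and glmQLFTest were used, p-values were adjusted by the Benjamini-Hochberg method across all genes in the test, and the threshold was 0.05. The SE of a log2 fold change is its size over the square root of F. Stages were compared by the mean of c and p cells over the 13 c and p libraries. The 95% interval of a ratio is an exact binomial one. The tests were tried on simulated counts. Results were recomputed with DESeq2, edgeR's likelihood ratio test, DESeq2's size factors, a filter of at least 10 counts in at least 2 libraries, no filter on low counts, a replicate block, all 16 libraries in 1 fit, each library left out, and, added after the data were seen, the legacy form of the quasi-likelihood test.

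Genes named are those called in any test, up to 4 per role by mean RPKM over the 7 group means, up to 3 per direction of lowest p in each comparison of c with p cells among those whose groups do not overlap, *Pt-dpp*, and those named chordin or noggin. Others are given by their range, and 1 gene is not reported here. The members, roles and lists were chosen with earlier results of these data known.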

Additional observations from a re-analysis of the deposited data

Results flagged for a closer look

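For 4 pathway genes the c and p libraries did not overlap at 2 or more stages and the order of the regions was opposite between stages. Lack of overlap was itself common over all genes tested. The shares with every c library above every p library, and the reverse, were 11.4% and 4.86% at stage 3. They were 16% and 12.2% at stage 4, and 23.1% and 11.9% at early stage 5. How many of all genes changed order between stages was not counted, so whether 4 is more than usual was not tested. The TAB2-like gene *g11050* was higher in c cells at stage 3 and early stage 5 and in p cells at stage 4, and its interaction of region and stage had an adjusted p of 0.701 by edgeR. The FGF8-like gene *g5611* was higher in c cells at stage 3, where 1 of the 2 c values was a single count, and in p cells at stage 4, also with an adjusted p of 0.701. *Mad* (*g26552*) was higher in p cells at stages 3 and 4 and in c cells at early stage 5, with an adjusted p of 1. The EPS15-like gene *g9261* was higher in p cells at stage 4 (c libraries at 0 and 25.4 CPM, p libraries at 35.6 and 36.5 CPM) and in c cells at early stage 5, with an adjusted p of 1. None of these differences between stages passed the adjusted test, and stage cannot be told apart from mother.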

How the results depend on the processing

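Log2 fold changes were recomputed under the alternatives for *g16925*, *g11050*, *g5611* and *g26552* at stage 3, *g26565*, *Pt-dpp*, *g5567*, *g11050*, *g5611* and *g26552* at stage 4, *g17729*, *g26565*, *g18901* and *g380* at early stage 5 (all c over p cells), and *g16925*, *g18259*, *g26565* and *g5611* for stage 4 over stage 3, and none of these changed sign. Other log2 fold changes in the text were not recomputed. With DESeq2, the number of pathway genes called was 2 in comparison I (0 as reported), 1 in II (0), 4 in III (0), 2 for stage-3 c over p cells (0), 3 for stage 4 (0), 5 for early stage 5 (1), 9 for stage 4 over stage 3 (4) and 2 for early stage 5 over stage 4 (0). With edgeR's likelihood ratio test it was 4 for early stage-5 c over p cells, 2 for early stage 5 over stage 4 and 1 for the interaction (*Pt-dpp*). The legacy form gave 2 for stage-4 c over p cells (*g26565* and *g5567*), 4 for early stage 5, 1 for early stage 5 over stage 4 and 1 for the interaction. DESeq2's size factors in edgeR gave 1 for stage-4 c over p cells, as did all 16 libraries in 1 fit, which gave 0 at early stage 5. The stricter filter gave 0 at early stage 5 and 2 for stage 4 over stage 3, where *g16925* and *g18259* were lost. Leaving out 1 library gave 0 at early stage 5 in each of 4 fits and 1 to 6 for stage 4 over stage 3: 1 without stage-4 p1 or early stage-5 c2, 2 without stage-4 c1, stage-4 c2, stage-4 p2 or early stage-5 c1. The cause of these differences was not tested.

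Over all genes the calls were 43 as reported and 11 to 603 under the alternatives that kept every library in comparison I, 11 and 7 to 556 in II, 20 and 4 to 696 in III, 25 and 0 to 932 for stage-3 c over p cells, 49 and 8 to 299 at stage 4, 96 and 0 to 412 at early stage 5, 1142 and 735 to 1710 for stage 4 over stage 3, 126 and 94 to 413 for early stage 5 over stage 4, and 11 and 1 to 104 for the interaction, the highest always with DESeq2. DESeq2's size factors moved the median log2 fold change of stage 4 over stage 3 by -0.16, with 527 genes higher and 610 lower at stage 4 against 659 and 483 as reported.

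Same-numbered libraries did not deviate together (correlations -0.0250 to 0.0261, and 2 of 6 stage-3 i and p libraries correlated best with their own number). These correlations cannot settle whether the numbers pair the samples. In groups of 2 libraries the deviations mirror each other, and many values at stages 3 and 4 are 0 beside a high replicate. With the replicate block, 0 pathway genes were called between early stage-5 c and p cells (*g17729*, adjusted p = 0.336) and 6 between stage 4 and stage 3.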

Other observations

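Several product names were shared by more than 1 gene model, and the 83 models carried 77 different NCBI labels. Models that are not neighbours shared a label in *g14259* and *g18883*, *g10124* and *g22820*, and *g6473* and *g19757*. *g15043* shared that of *g12568* and *g12569*. The 5 pairs of neighbouring models were *g88* and *g89*, *g2834* and *g2835*, *g12568* and *g12569*, *g16925* and *g16926*, and *g24026* and *g24027*, of which the third and the last share a label. In stage-3 i cells the type 2 receptor models *g24026* and *g24027* had 0, 73.0 and 26.9 CPM and 0, 0 and 18.4 CPM, and in early stage-5 c cells 76.8 and 40.4 CPM and 6.19 and 6.94 CPM. Counts of such models may belong to a single gene and are uncertain. *Mad* (*g26552*), FGF receptor 4 (*g26565*) and TAB2 (*g26585*) lie on the same scaffold, 164.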
